A study of Mus musculus with 55 samples.

Results

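Pbx2, Pbx3, Pbx4, Pknox1, Pknox2, Tgif1 and Tgif2 are homeobox genes of the TALE class, named for a three-amino-acid loop extension in the homeodomain. These 7 genes were chosen by symbol, from tables of 15479 rows for PRMK versus PRM and 51912 rows for sgMeis2 versus sgScramble, and their chromatin was read from peak lists over each gene body and 10 kb to each side. All 7 had a row in the sgMeis2 table and 6 in the PRMK table, which has no row for Tgif1, and every gene with a row passed the filter on low counts.

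The samples came from mouse small cell lung cancer made from organoids that were transplanted into the left lung lobe of recipient mice. PRMK stands for guides against Trp53, Rb1 and Kmt2c together with retroviral Myc. Kmt2c codes for an enzyme that methylates histone H3 at lysine 4 (H3K4). PRM carries the same guides and Myc without the Kmt2c guide, so the loss of Trp53 and Rb1 and the added Myc are shared by all groups. sgMeis2 and sgScramble are PRMK cells with a further guide, against Meis2 or scrambled. RNA was measured in 3 libraries of each of these 4 groups. Peak lists came from 2 libraries a group. Lung PRMK and lung PRM had lists of the marks H3K4me1, H3K4me2 and H3K4me3 and of the KMT2C protein, by CUT&Tag, in which an antibody directs cutting of the DNA. They also had ATAC lists, of open chromatin in organoids 3 days in culture. Liver PRM had lists of H3K4me1, KMT2C and ATAC. The plasmid entries of the PRMK RNA samples do not name the Kmt2c guide. In H3K4me2, H3K4me3 and KMT2C, PRMK library 1 is labelled with the Meis2 guide and library 2 with the scrambled one. A strand-specific kit is named only for PRM RNA, so kit and genotype cannot be told apart. Nothing in the labels says that replicates are separate animals, and p-values then measure only the spread between these samples.

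PBX proteins bind DNA together with HOX, MEIS or PKNOX (also called PREP) proteins. PKNOX proteins, like MEIS proteins, hold PBX in the nucleus and take part in shared complexes. TGIF proteins recognise a site much like that of MEIS and PKNOX but repress, both at such sites and as corepressors of SMAD proteins in TGF-beta signalling. H3K4me3 marks active promoters, and H3K4me1, the mark laid down at enhancers by KMT2C and its paralogue, marks enhancers and their surroundings.

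The libraries were unequal in ways that touch these genes. RNA totals were 12013253 to 24389041 counts. Pairwise correlations of libraries were 0.949 to 0.978 among PRMK libraries and 0.805 to 0.891 among PRM libraries. PRM library 6 had a summed level of 66.6 CPM (reads scaled to library depth by TMM factors) over the 5 neuroendocrine markers in the table, against 2381 to 4684 CPM in the other 5 libraries of the comparison, with none of the markers at 0. The epithelial sum (4 of 4 markers) was 517 to 2860 CPM in the PRMK libraries and 159, 48.6 and 2814 CPM in PRM libraries 4, 5 and 6. The fibroblast sum (5 of 5) was 62.7 to 275 CPM in the PRMK libraries and 328, 2.58 and 168 CPM in PRM libraries 4, 5 and 6, and 2 of these markers were at 0 in PRM library 5. Kmt2c, the targeted gene, had 85.1, 84.4 and 105 CPM in PRMK libraries and 113, 187 and 67.6 CPM in PRM libraries, so the groups overlapped. Meis2 had 219, 224 and 137 CPM in sgMeis2 libraries and 259, 227 and 233 CPM in sgScramble libraries. RNA of an edited gene need not fall, so these levels do not check the labels fully.

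Of the 7 genes, 4 have promoter sequence in the reference used here (RefSeq, GRCm38.p6, 250 bases before to 50 after an annotated start): Tgif2, Pbx2, Pbx4 and Tgif1, the last with 5 starts. They are shown because their starts lay under an H3K4me3 peak in all 4 lung libraries, whatever the RNA did. The Tgif1 start shown was picked, after the search, as the one with a TGACAG and the most GC boxes. Capitals mark 4 motifs searched on both strands: TGACAG, the core bound by MEIS, PKNOX and TGIF proteins, TGATNNAT, a form of the PBX-HOX site, GGGCGG, the GC box, and CCAAT, with overlapping matches of the GC box counted separately.
Tgif2, chr2:156839757-156840056, + strand: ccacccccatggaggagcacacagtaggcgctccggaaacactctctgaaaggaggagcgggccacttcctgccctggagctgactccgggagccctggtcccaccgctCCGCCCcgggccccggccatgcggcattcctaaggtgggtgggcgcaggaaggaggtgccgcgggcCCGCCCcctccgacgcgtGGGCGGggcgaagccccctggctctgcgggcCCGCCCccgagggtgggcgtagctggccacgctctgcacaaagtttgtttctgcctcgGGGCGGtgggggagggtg
Pbx2, chr17:34592009-34592308, + strand: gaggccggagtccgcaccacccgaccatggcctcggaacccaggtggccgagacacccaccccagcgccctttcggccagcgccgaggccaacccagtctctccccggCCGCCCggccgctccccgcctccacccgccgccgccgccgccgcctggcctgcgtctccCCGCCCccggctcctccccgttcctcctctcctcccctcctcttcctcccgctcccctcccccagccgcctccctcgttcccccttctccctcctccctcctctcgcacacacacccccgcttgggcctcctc
Pbx4, chr8:69832374-69832673, + strand: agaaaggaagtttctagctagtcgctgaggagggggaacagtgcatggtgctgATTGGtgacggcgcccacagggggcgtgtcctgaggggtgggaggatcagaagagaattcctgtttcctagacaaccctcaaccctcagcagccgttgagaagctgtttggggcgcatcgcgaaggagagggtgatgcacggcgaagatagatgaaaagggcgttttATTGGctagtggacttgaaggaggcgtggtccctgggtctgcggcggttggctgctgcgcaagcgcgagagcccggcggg
Tgif1, chr17:70851161-70851460, - strand: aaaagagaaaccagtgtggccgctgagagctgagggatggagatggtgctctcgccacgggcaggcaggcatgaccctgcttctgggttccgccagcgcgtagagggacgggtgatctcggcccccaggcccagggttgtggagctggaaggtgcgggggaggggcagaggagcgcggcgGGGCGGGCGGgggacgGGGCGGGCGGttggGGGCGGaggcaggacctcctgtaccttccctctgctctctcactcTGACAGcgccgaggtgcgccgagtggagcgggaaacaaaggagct

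The Tgif2 promoter, 72.3% G or C, held 5 GC boxes and none of the other motifs. The Pbx2 promoter, 76.0% G or C, held 2 GC boxes, and the Pbx4 promoter held 2 CCAAT matches. The Tgif1 promoter shown held 5 GC boxes and 1 TGACAG. Among the other 4 Tgif1 promoters, 1 held a TGACAG, 1 a TGATNNAT with a GC box, 1 a CCAAT and 1 none. Of 32851 promoters of the same length, 35.7% held a GC box, 37.4% a CCAAT, 19.2% a TGACAG and 8.85% a TGATNNAT. A match is a string of letters and not a bound site.

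The first RNA comparison sets the tumours labelled PRMK against those labelled PRM. Tgif2 had the largest difference among the 6 genes with a row, lower in all 3 PRMK libraries. Pbx2 and Pknox1 were higher in all PRMK libraries than in any PRM library, with log2 fold changes that did not pass the test. Pbx3, Pbx4 and Pknox2 overlapped between groups, and PRM library 6 held the lowest value of each.

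Tgif2 (ENSMUSG00000062175, chromosome 2, 156839817 to 156855570, GRCm38), the second TGIF repressor, had 31, 30 and 23 reads in PRMK libraries 1, 2 and 3 and 78, 241 and 110 reads in PRM libraries 4, 5 and 6. Scaled to depth these were 1.25, 1.57 and 0.911 CPM in PRMK and 4.08, 13.5 and 9.79 CPM in PRM. The groups did not overlap, and PRM libraries were less alike than PRMK libraries. The mean was 1.24 ± 0.33 CPM in PRMK and 9.13 ± 4.75 CPM in PRM (SD, n = 3 each). edgeR's quasi-likelihood test gave a log2 fold change of -2.87 (SE 0.61) and an adjusted p of 0.190. DESeq2 gave -2.89 with an adjusted p of 2.54e-04. In the authors' deposited table it was -2.83 with an adjusted p of 0.000212. Without PRM library 4, the edgeR value was -3.27 with an adjusted p of 0.0411. The call therefore depends on the tool and on 1 library, while the sign held without any single library (-3.27 to -2.47). That dependence was not particular to Tgif2. The lowest edgeR adjusted p of any gene was 0.158, and without PRM library 4 edgeR called 796 genes. The gene table also lists pseudogenes named for Tgif2, and no source used here says how reads they share were counted, so its counts are uncertain to that extent. The coding gene LOC115486128 overlaps Tgif2, and a strand-specific kit is named only for PRM RNA. Reads in the overlap may therefore have been counted differently in the 2 genotypes, which was not tested. In bulk RNA, fewer cells expressing a gene and less RNA per cell cannot be told apart.

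Read against all 13914 genes tested, edgeR called 0% and DESeq2 called 3.9% higher and 4.86% lower, among them 0 and 1 of these 6 genes. An unadjusted edgeR p under 0.05 was reached by 2384 genes (7.03% higher and 10.1% lower), among them Pbx2 (higher) and Tgif2 (lower). Groups that did not overlap were common: 15.1% of all genes were higher and 14.6% lower, set beside 2 and 1 of the 6. The 3 genes of at least 10 CPM whose log2 level followed Tgif2 most closely over the 6 libraries, out of 10103, were Gm12669, Wdr3 and Il20rb, each with a Pearson r of 0.998 as a description. Wdr3, a ribosome biogenesis factor, averaged 38.3 CPM in PRMK and 107 CPM in PRM. Il20rb, a cytokine receptor subunit, averaged 8.72 CPM in PRMK and 14.6 CPM in PRM.

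**Figure D1:**
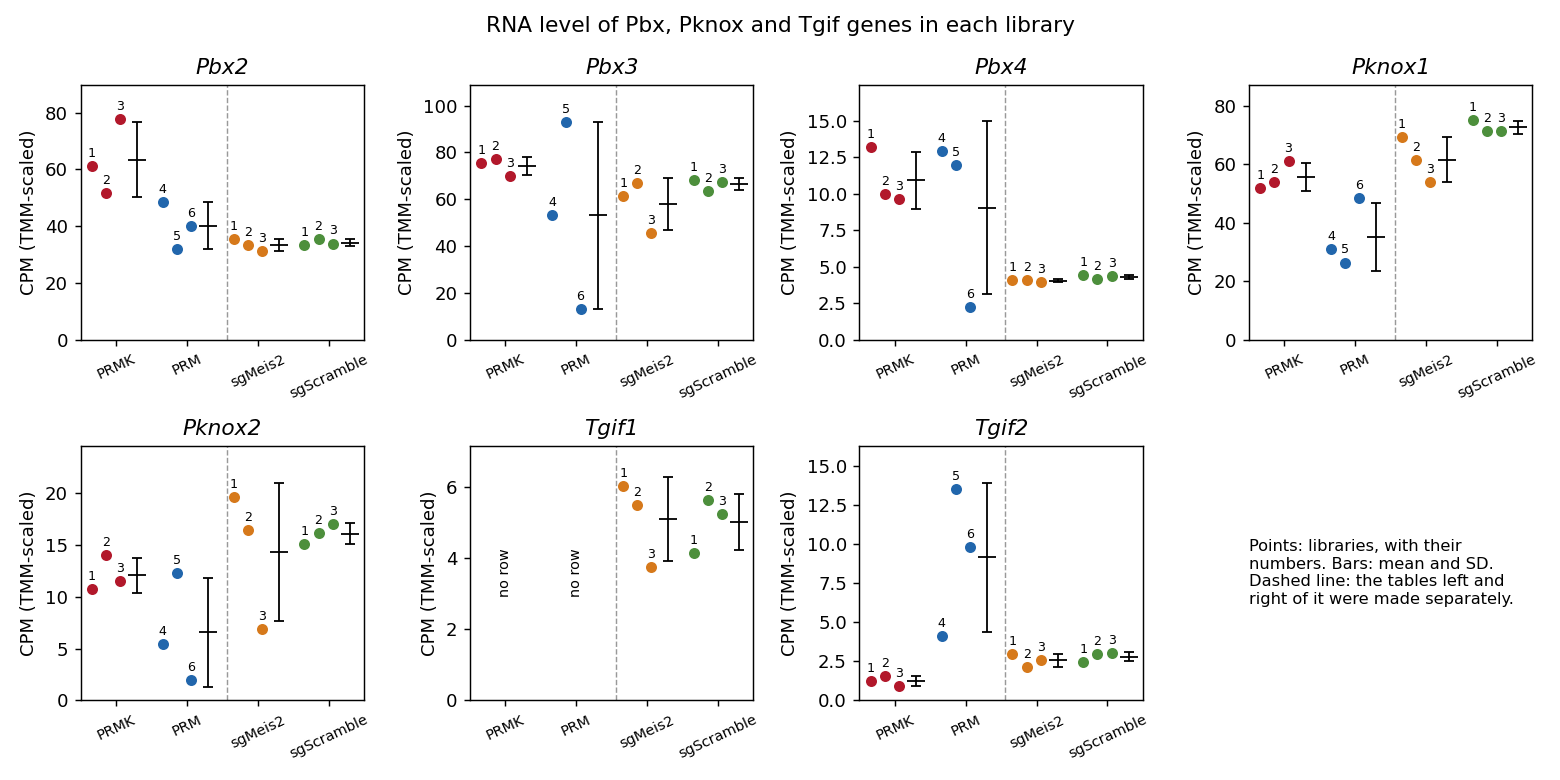
CPM (TMM-scaled, linear axis from 0) of each gene in each library, with library numbers, and the mean and SD of each group beside its points. Tgif2 sits between 0.911 and 1.57 CPM in PRMK libraries and between 4.08 and 13.5 CPM in PRM libraries, while Pbx3, Pbx4 and Pknox2 are lowest in PRM library 6. The tables left and right of each dashed line were made separately.

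Pbx2, a broadly expressed PBX protein, had 61.0, 51.5 and 77.8 CPM in PRMK libraries and 48.4, 32.1 and 40.1 CPM in PRM libraries. The groups did not overlap, but the lowest PRMK library (51.5 CPM) was close to the highest PRM library (48.4 CPM). The mean of 63.5 ± 13.3 CPM in PRMK and 40.2 ± 8.17 CPM in PRM (SD, n = 3 each) gave a log2 fold change of 0.66 (SE 0.26) with an adjusted p of 0.281 in edgeR. Pknox1, the ubiquitous PKNOX partner, had 52.1, 54.1 and 61.3 CPM in PRMK libraries and 30.9, 26.4 and 48.5 CPM in PRM libraries. Its log2 fold change was also 0.66 (SE 0.29), with an adjusted p of 0.305. Neither gene was called by DESeq2 (adjusted p of 0.179 and 0.241).

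Pbx3, the PBX protein known in neural tissue and in leukaemia, had 75.2, 77.0 and 69.7 CPM in PRMK libraries and 53.3, 93.0 and 13 CPM in PRM libraries. PRMK libraries were tight, and the PRM libraries lay on both sides of them. The log2 fold change was 0.48 (SE 0.63, edgeR adjusted p = 0.718), 0.02 without PRM library 6 and 1.16 without PRM library 5. Pknox2, the more tissue-restricted PKNOX gene, had 10.8, 14.0 and 11.5 CPM in PRMK libraries and 5.44, 12.3 and 1.96 CPM in PRM libraries. Its log2 fold change was 0.87 (SE 0.67, edgeR adjusted p = 0.529), 0.45 without PRM library 6 and 1.70 without PRM library 5. Pbx4, a PBX gene best known from testis, had 13.2, 9.97 and 9.66 CPM in PRMK libraries and 12.9, 12 and 2.23 CPM in PRM libraries. Its log2 fold change of 0.27 (SE 0.67, edgeR adjusted p = 0.855) was -0.18 without PRM library 6. In all 3 genes the lowest PRM value came from the library with the low neuroendocrine sum, and the part of that sum in these values was not tested. Across the 6 genes, 5 log2 fold changes were above 0, where 48.6% of all genes were, and the median was 0.57, against -0.02 over all genes tested.

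**Figure D2:**
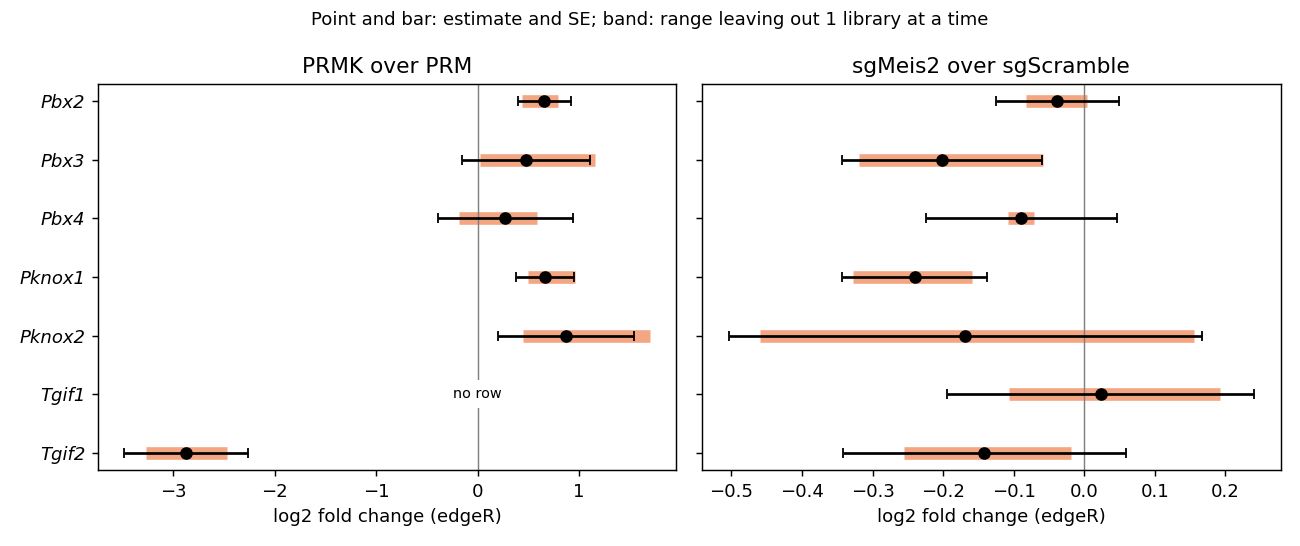
The log2 fold change (horizontal axis) of each gene from edgeR with its SE, PRMK over PRM on the left and sgMeis2 over sgScramble on the right, on axes of different length. Shaded bands span the values with 1 library left out at a time. The Tgif2 band (-3.27 to -2.47) stays away from 0 on the left, while on the right no estimate is further from 0 than 0.24.

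Partner genes were read from a list of other TALE genes, HOX genes and TGF-beta or corepressor genes. That list was chosen with earlier results of these data known, so its counts are a description only. edgeR called none of them. Over all genes, DESeq2 called 3.9% higher and 4.86% lower. Of 8 other TALE genes tested (10 listed), DESeq2 called 2 higher and 0 lower, and the list's median log2 fold change was 0.57. Meis2, which binds DNA with PBX proteins, had 139, 215 and 272 CPM in PRMK libraries and 0.889, 1.46 and 17.3 CPM in PRM libraries (DESeq2 adjusted p = 2.15e-04, edgeR 0.195). Meis1, its paralogue, had 47.3, 32.1 and 39.8 CPM in PRMK libraries and 5.8, 6.89 and 15.7 CPM in PRM libraries (DESeq2 adjusted p = 0.00219, edgeR 0.190). Of 9 HOX genes with a row, only Hoxb4 passed the filter on low counts, at 6.55, 0.835 and 47.7 CPM in PRMK libraries and 0.261, 0.0561 and 0.445 CPM in PRM libraries. DESeq2 called it higher (adjusted p = 4.33e-04, edgeR 0.208), but it passed the filter through PRMK, where it was high, so the call is no support for a change of HOX genes. Of 9 TGF-beta and corepressor genes tested, DESeq2 called 1 higher and 0 lower, and their median was -0.41. Hdac1, a histone deacetylase found in TGIF and other repressor complexes, averaged 165 ± 2.85 CPM in PRMK and 111 ± 13.5 CPM in PRM (SD, n = 3 each), with a log2 fold change of 0.58 (SE 0.17) and adjusted p of 0.220 in edgeR and 0.0369 in DESeq2.

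The second RNA comparison asks what a guide against Meis2 does in PRMK cells. None of the 7 genes passed either test there, and the estimates were small. In this table edgeR called 0% of 16260 genes (760 had an unadjusted p under 0.05, 2.2% higher and 2.47% lower, and 0 of the 7), while DESeq2 called 3 higher (0.0185%) and 19 lower (0.117%). Library 3 of sgMeis2 stood apart, with correlations to the other 5 libraries of 0.974 to 0.977, against 0.995 to 0.998 among those 5, and without it edgeR called 46 genes and 0 of the 7.

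Pknox1 had 69.3, 61.5 and 54.0 CPM in sgMeis2 libraries and 75.3, 71.5 and 71.5 CPM in sgScramble libraries. All sgMeis2 libraries were below all sgScramble libraries. On the log2 scale the difference was -0.24 (SE 0.10) and its adjusted p 0.754 in edgeR, and it was -0.16 without sgMeis2 library 3. Pbx4 also did not overlap, at 4.11, 4.07 and 3.97 CPM in sgMeis2 libraries and 4.42, 4.17 and 4.34 CPM in sgScramble libraries, a log2 fold change of -0.09 (SE 0.14). These were 2 of 7 genes, where 7.92% of all genes were lower without overlap and 8.12% higher. The sign of Pknox1 in PRMK over PRM was the opposite one, and neither difference passed the test.

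Pbx3 had 61.2, 66.7 and 45.3 CPM in sgMeis2 libraries and 68.4, 63.5 and 67.5 CPM in sgScramble libraries, with a log2 fold change of -0.20 (SE 0.14, edgeR adjusted p = 0.754). Library 3 of sgMeis2 was again the lowest, and without it the value was -0.06. Pknox2 had 19.7, 16.4 and 6.86 CPM in sgMeis2 libraries and 15.1, 16.2 and 17.1 CPM in sgScramble libraries. Its log2 fold change of -0.17 (SE 0.34) became 0.16 without sgMeis2 library 3. Pbx2 had 35.6, 33.2 and 31.1 CPM in sgMeis2 libraries and 33.3, 35.5 and 33.9 CPM in sgScramble libraries, a log2 fold change of -0.04 (SE 0.09).

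Tgif1, the TGIF gene mutated in human holoprosencephaly, had 6.01, 5.49 and 3.75 CPM in sgMeis2 libraries and 4.14, 5.64 and 5.24 CPM in sgScramble libraries, a log2 fold change of 0.02 (SE 0.22). Tgif2 had 2.95, 2.10 and 2.57 CPM in sgMeis2 libraries and 2.44, 2.94 and 3.01 CPM in sgScramble libraries, a log2 fold change of -0.14 (SE 0.20, edgeR adjusted p = 0.805) that was -0.02 without sgMeis2 library 2. Both groups here are PRMK, and the Tgif2 values of this table cannot be set against the PRM libraries of the other. Over the 7 genes, 1 log2 fold change was above 0, against 50.8% of all genes, and the median was -0.14. That count rests in part on sgMeis2 library 3. Without it Pbx2 (0.0038), Pknox2 (0.16) and Tgif1 (0.19) were above 0, while Pbx3, Pbx4, Pknox1 and Tgif2 stayed below. Of the context list, DESeq2 called only Tgfbr2, the type II TGF-beta receptor, among the 8 other TALE genes, 8 HOX genes and 10 TGF-beta and corepressor genes tested. Over all genes it called 0.0185% higher and 0.117% lower. Tgfbr2 had 2.53, 2.15 and 2.41 CPM in sgMeis2 libraries and 4.97, 5.97 and 3.92 CPM in sgScramble libraries (log2 fold change -1.07, adjusted p 0.0316 in DESeq2 and 0.754 in edgeR).

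The peak lists ask where the marks and KMT2C were found at these genes. The 4 lists of a comparison were merged into regions. A region was gained if it held peaks of both PRMK (or liver) libraries and of no lung PRM library, lost in the reverse case, kept if it held peaks of all 4 libraries, and mixed otherwise. No test was made, since the smallest p of an exact permutation of 2 against 2 libraries is 0.33. Peak libraries cannot be matched to RNA libraries one by one. The length covered by peaks in each gene window was compared as well, a measure added after the lists were seen, and it moves with how much was called. The H3K4me1 lists covered 147 and 77.4 Mb in lung PRMK, 99.8 and 151 Mb in liver PRM, and 125 and 111 Mb in lung PRM.

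Pbx3 and Pknox2, the longest genes of the group (201 and 256 kb), carried less H3K4me1 in lung PRMK. At Pbx3 (chromosome 2, 34171457 to 34372045), H3K4me1 peaks covered 61.2 and 34.9 kb of the window in lung PRMK and 101 and 102 kb in lung PRM. The PRMK mean was 0.47 of the PRM mean, against a median of 0.90 over all coding genes with PRM coverage. One domain was chosen after its values were seen, with the bounds of the widest H3K4me1 peak at Pbx3 in lung PRM library 2: chr2:34218860-34265637, from 47.4 to 94.2 kb above the lower-coordinate end of the gene. That library therefore covers it whole by construction, and its values are a description only. H3K4me1 covered 70.6% and 48.6% of the domain in lung PRMK, in 6 and 8 peaks. It was a single peak over 100% of the domain in both liver PRM libraries and over 96.0% in lung PRM library 1.

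In the H3K4me2, H3K4me3 and KMT2C lists, PRMK library 1 is labelled with the Meis2 guide and library 2 with the scrambled one. An added guide and the genotype therefore cannot be told apart in them. H3K4me2 at Pbx3 went the other way from H3K4me1. It covered 49.8 and 45.0 kb of the window in lung PRMK and 19.6 and 14.6 kb in lung PRM, a ratio of 2.78 against a median of 1.14 over coding genes. Keeping only peaks at or above the median signal of their list, the ratio was 7.55. Within that domain, H3K4me2 covered 54.4% and 53.1% in lung PRMK and 17.6% and 4.44% in lung PRM. H3K4me3 covered 25.8 and 21.2 kb of the window in lung PRMK and 17.1 and 8.29 kb in lung PRM, a ratio of 1.85. That ratio was 2.84 without lung PRM library 1, 1.37 without lung PRM library 2 and 1.37 with peaks at or above the median signal of their list. KMT2C peaks covered 21.6 and 26.7 kb in lung PRMK, 64.0 and 81.7 kb in liver PRM and 19.8 and 16.9 kb in lung PRM. The RNA of Pbx3 did not pass the test over the same 2 genotypes.

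**Figure D3:**
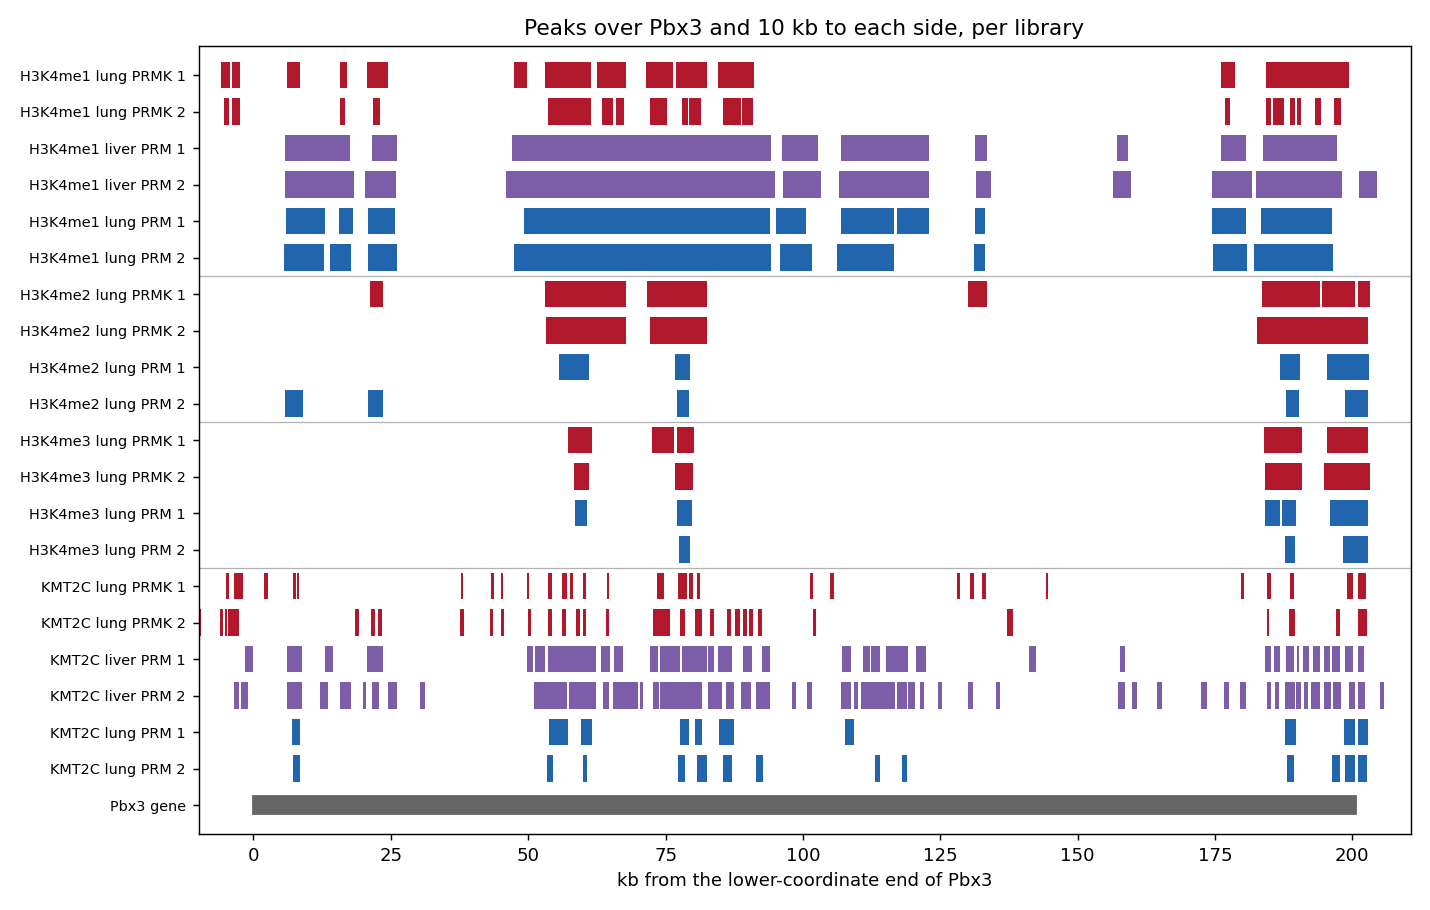
Peaks of each library (rows) over Pbx3, in kb from its lower-coordinate end, for H3K4me1, H3K4me2, H3K4me3 and KMT2C, with the gene as the grey bar. The domain from 47.4 to 94.2 kb is bounded by the widest H3K4me1 peak of lung PRM library 2. It is 1 H3K4me1 peak in each liver PRM and lung PRM library, and 6 and 8 peaks in lung PRMK libraries 1 and 2. H3K4me2 is wider in its lung PRMK libraries, which are labelled with the Meis2 or the scrambled guide.

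At Pknox2 (chromosome 9, 36890979 to 37147342), H3K4me1 covered 40.7 and 31.5 kb in lung PRMK, 60.6 and 76.8 kb in liver PRM and 69.7 and 66.5 kb in lung PRM. The PRMK mean was 0.53 of the lung PRM mean. H3K4me2 did not follow there, at 21.9 and 22 kb in lung PRMK and 27.7 and 16.8 kb in lung PRM. At Pknox1 (chromosome 17, 31564722 to 31607693) H3K4me1 covered 10.3 and 5.84 kb in lung PRMK and 13.7 and 11.9 kb in lung PRM, a ratio of 0.63. So H3K4me1 coverage was lower without overlap at 3 of the 7 genes and higher at 1. Of all coding genes with any coverage, 22.9% were lower and 26.4% higher. Among the 263 gene windows covered over at least 50 kb in both lung PRM libraries, to which Pbx3 and Pknox2 belong, 46.4% were lower without overlap, 10.6% were higher, and the median ratio was 0.80. These windows, Pbx3 and Pknox2 among them, were picked by their lung PRM coverage, which can tilt the comparison towards lower PRMK values. As a description only, many of them shared the direction of Pbx3 and Pknox2. PRMK library 2 had the narrowest H3K4me1 peaks (median width 1419 bases, against 2735 in PRMK library 1 and 2944 to 2973 in lung PRM). Without it the ratio was 0.60 at Pbx3, 0.60 at Pknox2 and 0.81 at Pknox1.

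**Figure D4:**
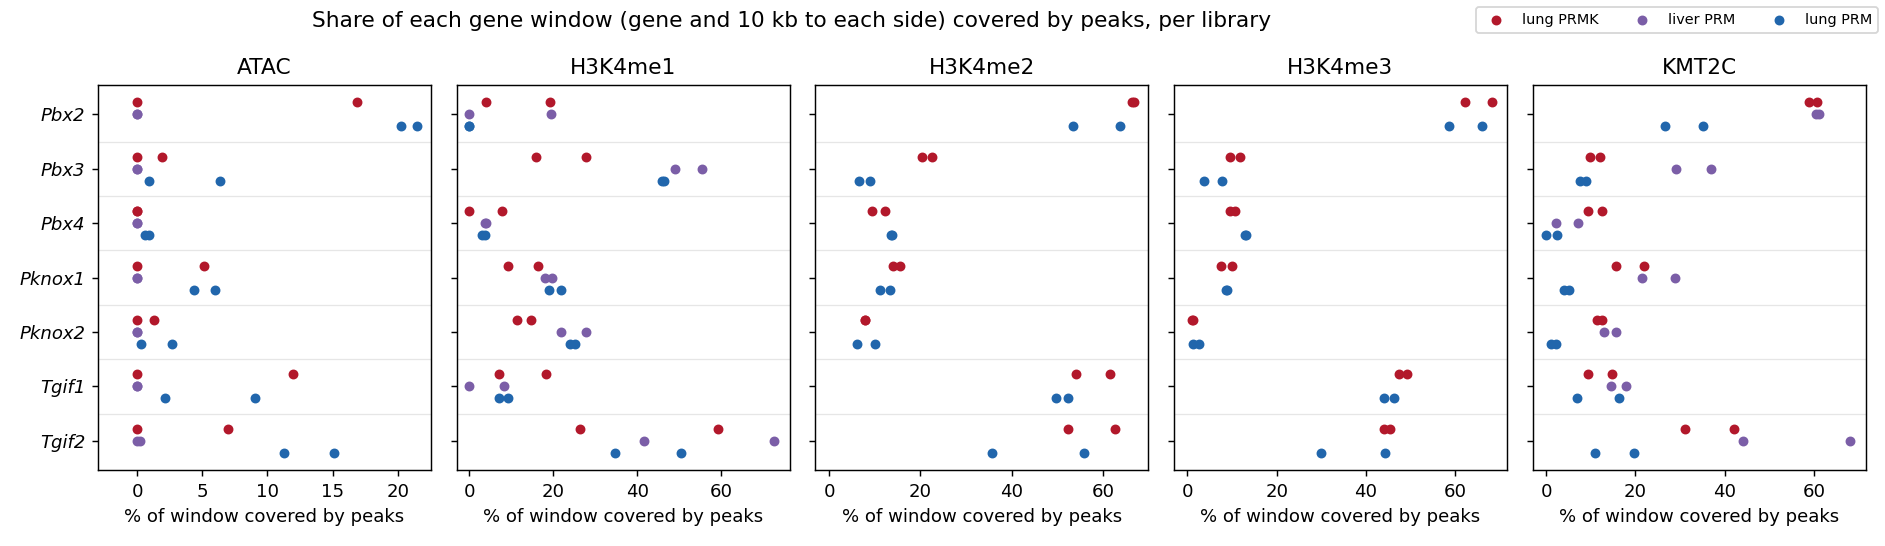
Share of each gene window covered by peaks in each library (points, in percent) for ATAC, H3K4me1, H3K4me2, H3K4me3 and KMT2C, coloured by group from top to bottom within a gene as lung PRMK, liver PRM and lung PRM. H3K4me1 at Pbx3 and Pknox2 is lower in both lung PRMK libraries than in all 4 PRM libraries, and the H3K4me2 points of Pbx3 lie the other way.

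Over the Tgif2 start, H3K4me2 peaks lay in all 4 lung libraries, and H3K4me3 peaks did so by the rule for printing promoters. The H3K4me3 peak there was 5.39 and 5.67 kb wide in lung PRMK and 3.41 and 6.32 kb in lung PRM. The highest signal of that peak exceeded 46.9% and 59.0% of the peaks in the PRMK lists and 0.46% and 67.5% of those in the PRM lists. H3K4me3 covered 15.7 and 16.3 kb of the whole window in lung PRMK and 10.7 and 15.8 kb in lung PRM. H3K4me2 covered 18.7 and 22.4 kb in lung PRMK and 12.7 and 19.97 kb in lung PRM. The H3K4me2 peak over the start exceeded 63.4% and 89.4% of the peaks in the PRMK lists and 6.39% and 96.3% of those in the PRM lists. Beside the lower Tgif2 RNA in PRMK, no H3K4me3 or H3K4me2 region was lost. For H3K4me3 at the start, the rule for printing promoters fixed this in advance. Lung PRM library 1 was weak at the start in both marks, and the peak libraries are not those of the RNA. H3K4me1 showed 1 gained region, 3.52 kb wide and ending 4.46 kb before the start, present in both lung PRMK libraries and neither lung PRM library. Both liver PRM libraries also had H3K4me1 peaks overlapping part of it. The window also holds Rab5if and the overlapping gene LOC115486128, so peaks past the far end of Tgif2 cannot be assigned to it alone.

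**Figure D5:**
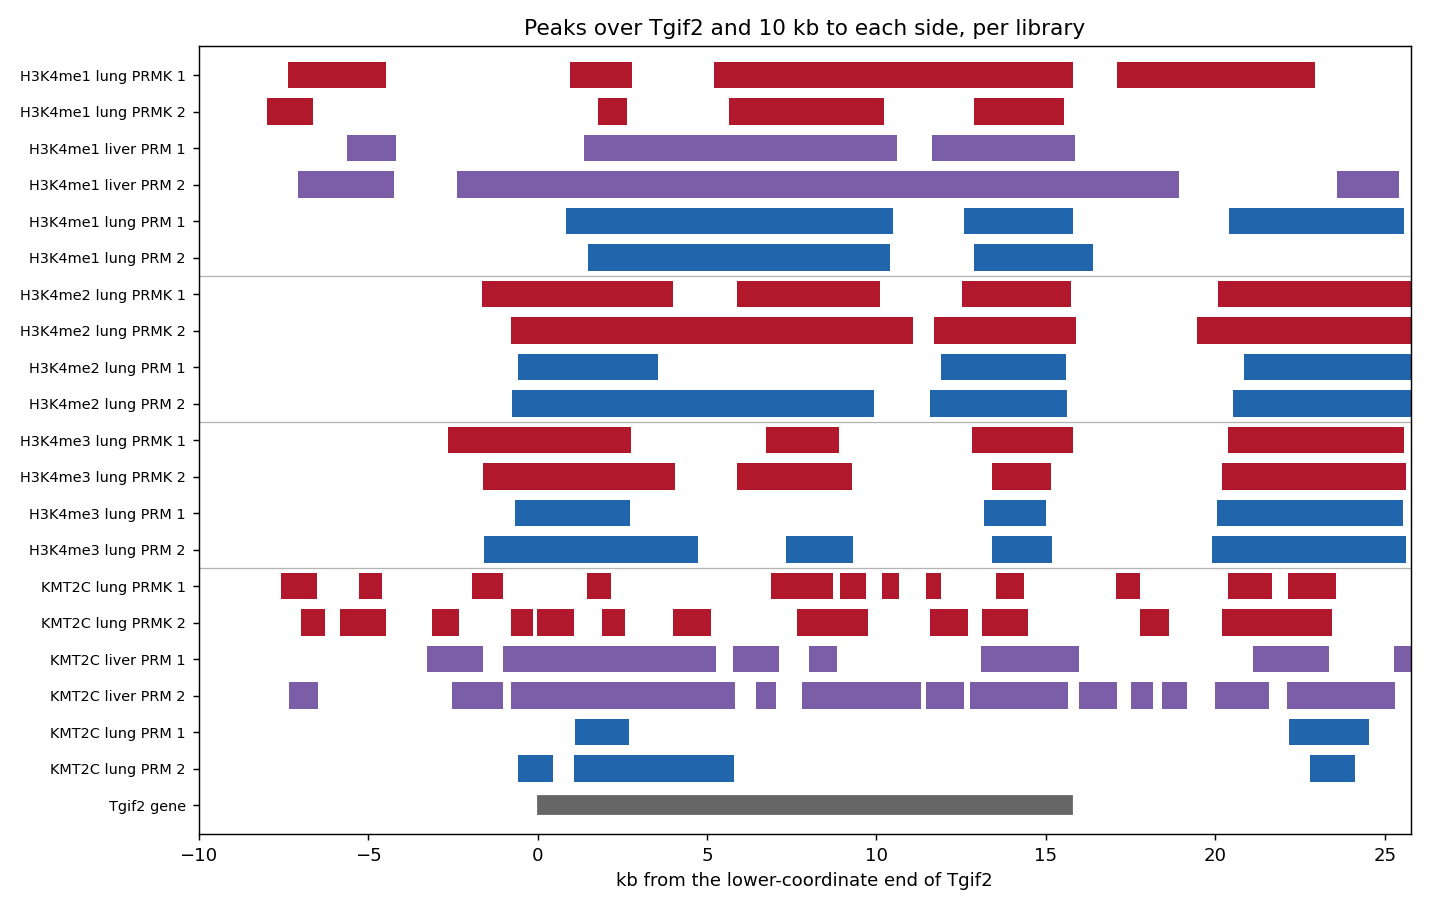
Peaks of each library (rows) over Tgif2, in kb from its start at the lower-coordinate end, with the gene as the grey bar. H3K4me3 and H3K4me2 cover the start in all 4 lung libraries, and an H3K4me1 peak before the start is present in both lung PRMK and both liver PRM libraries and absent from both lung PRM lists.

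The window of Pbx4 (chromosome 8, 69832476 to 69872292) held less H3K4me3 and H3K4me2 coverage in lung PRMK. H3K4me3 covered 6.34 and 5.66 kb in lung PRMK and 7.70 and 7.83 kb in lung PRM, and H3K4me2 covered 7.27 and 5.65 kb in lung PRMK and 8.14 and 8.30 kb in lung PRM. Part of this length lies before the gene, in a window shared with Lpar2 and Cilp2, and over the gene body alone the H3K4me3 ratio turned to 1.05. With peaks at or above the median signal of their list, the ratio was 0.44 for H3K4me2, and no H3K4me3 peak was left in lung PRMK. Over the start itself the H3K4me3 peak differed little in width, at 2.79 and 2.63 kb in lung PRMK and 2.87 and 2.92 kb in lung PRM. The H3K4me2 peak there was 2.53 and 2.29 kb in lung PRMK and 3.65 and 3.07 kb in lung PRM. The highest H3K4me3 signal over the start exceeded 48.4% and 45.4% of the PRMK lists and 73.0% and 69.7% of the PRM lists. An ATAC peak lay over the Pbx4 start in both lung PRM libraries and in neither lung PRMK library, although PRMK library 1 had only 585 ATAC peaks in all.

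Tgif1 (chromosome 17, 70844205 to 70853532), with no row in the PRMK RNA table to set beside the marks, had 1 broad promoter peak. One H3K4me3 peak of 10.9 and 12.7 kb in lung PRMK and 10.4 and 11.1 kb in lung PRM spanned all 5 annotated starts. It was among the 231 widest of each list. Its covered length differed little (14.2 kb on average in lung PRMK and 13.3 kb in lung PRM), and the gene body alone turned the ratio to 0.87. Pbx2 (chromosome 17, 34592259 to 34597400) lies among Ager, Agpat1, Gpsm3, Notch4 and Rnf5, so its window cannot be assigned to it alone. H3K4me3 lay over the Pbx2 start in all 4 lists, also by the rule for printing promoters. The peak was 4.81 and 4.82 kb wide in lung PRMK and 4.94 and 3.48 kb in lung PRM. H3K4me1 was at 4.82 and 0.99 kb of the Pbx2 window in lung PRMK and at 0 in lung PRM. The highest signal there exceeded 48.4% and 5.13% of the peaks in the PRMK lists, so library 2 was near the floor. Liver PRM library 1 had 0 kb, and liver PRM library 2 had 4.89 kb, with a highest signal above 1.25% of its list.

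By regions, H3K4me1 had 6 gained and 6 lost of 42 in the 7 windows, where 15.6% of all regions were gained and 14.0% lost. At least 1 gained region was at 4 of the genes and at least 1 lost region at 2, Pbx3 and Pknox2. For comparison, 21.9% of all coding gene windows held a gained and 14.4% a lost region. These shares are not matched for length: longer windows can hold more regions, and those of Pbx3 and Pknox2 are 221 and 276 kb. H3K4me2 had 1 gained and 0 lost of 25 regions (8.07% and 1.35% of all). H3K4me3 had 0 gained, 0 lost and 15 kept of 21 (1.27%, 3.17% and 55.8% of all). Of the members' windows, 4 had more H3K4me2 coverage without overlap and 1 less, where 37.2% and 9.11% of all genes did. For H3K4me3 these were 2 and 2, where 23.0% and 15.4% of all genes did. The median ratio of the 7 genes was 1.14 for H3K4me2 and 1.05 for H3K4me3, beside 1.14 and 1.02 over coding genes. For H3K4me1 it was 0.82 over 6 genes, beside 0.90 over coding genes, and it leaves out Pbx2, which was higher without overlap and has no ratio because its coverage in lung PRM was 0.

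KMT2C, the protein whose gene is targeted in PRMK, gave far more peaks in lung PRMK (187620 and 134514) than in lung PRM (9929 and 16660). At the 7 genes, 39 of 164 regions were gained in lung PRMK, 0 lost and 15 kept, against 20.8%, 0.257% and 3.03% of all regions. Coverage was higher without overlap at 6 of 7 genes, and lower at 0, where 81.8% of all coding genes were higher and 0.937% lower, so this count is near the background. The exception was Tgif1, with 4.33 and 2.78 kb in lung PRMK and 2.05 and 4.76 kb in lung PRM. Pknox2 had 31.4 and 34.6 kb in lung PRMK and 6.38 and 2.91 kb in lung PRM, a ratio of 7.10 against a median of 3.11 over coding genes. That Pknox2 ratio was 11.3 without lung PRM library 1, 5.17 without lung PRM library 2 and 39.3 with peaks at or above the median signal of their list. Pbx3 had a ratio of 1.32, and the median of the 7 genes was 2.38. The depth of these libraries is unknown, and the KMT2C lists of the 2 genotypes cannot be read as amounts of protein.

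Liver PRM was set beside lung PRM to compare the sites within a genotype. H3K4me1 at the 7 genes differed little: 2 of 32 regions were gained and 0 lost (4.1% and 1.03% of all), and 20 were kept (53.3% of all). Coverage was higher without overlap at Pbx3 and Pbx4, where 13.9% of all genes were higher and 7.16% lower. Pbx3 had 108 and 122 kb in liver PRM against 101 and 102 kb in lung PRM. KMT2C had 30 gained and 0 lost of 122 regions (21.5% and 0.124% of all), from liver lists of 65145 and 113026 peaks. Its coverage was higher in liver at 5 of 7 genes and lower at 0, against 81.8% and 0.134% of all genes. The median ratio was 3.93 over the 7 genes for KMT2C, and 1.07 over the 6 genes other than Pbx2 for H3K4me1.

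Open chromatin could be compared only in part, because PRMK library 1 and the liver PRM libraries had 585, 336 and 136 ATAC peaks, against 54190 in PRMK library 2 and 64573 and 19831 in lung PRM. No ATAC peak of PRMK library 1 fell in any of the 7 windows. PRMK library 2 covered 4.24 kb at Pbx2, 4.23 kb at Pbx3 and 2.49 kb at Tgif2. Lung PRM covered 5.40 and 5.10 kb at Pbx2, 14.0 and 2.01 kb at Pbx3 and 5.41 and 4.04 kb at Tgif2. Counted as for the marks, 0 regions were gained and 4 of 102 lost in lung PRMK (0.00808% and 3.68% of all), and 0 gained and 15 of 77 lost in liver PRM (0.00419% and 15.3% of all), counts that the near-empty lists set.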

How the data were processed

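RNA reads were aligned with STAR 2.6.0a to GRCm38, per the submitters' processing notes, and the authors deposited raw counts per gene with their own log2 fold changes, standard errors and p-values. ATAC reads were aligned with Bowtie2 2.2.1 and CUT&Tag reads with Bowtie2 to mm10, with SEACR named for the latter, per the submitters' processing notes. The deposited CUT&Tag lists give the total and highest signal of each peak and the ATAC lists a score, and no source used here names the ATAC peak caller. PRM columns are numbered 4 to 6 while the sample titles run from 3 to 5, and column numbers are used. 12 per-sample columns of other values were not used.

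Counts were tested in R 4.3.3 with edgeR 4.0.16 (quasi-likelihood, TMM, filterByExpr, Benjamini-Hochberg adjusted p under 0.05), over all genes of each table. DESeq2 1.42.0, other scaling, no filter, and leaving out each library were alternatives. Gained and lost regions needed at least 1 bp overlap. Only the core of each gapped ATAC peak was used, and the whole extent was added as an alternative after the data were seen. Gene ends and windows come from RefSeq coordinates on GRCm38.p6, the assembly that mm10 is built on, and strand was known only for genes with promoter sequence, so starts are given for those alone. Peaks were processed with Python 3.11.15 and pandas 2.3.3. Both pipelines were tested on simulated data. The genes, lists and rules for naming genes (all 7 members, called genes of the context list, and the 3 closest patterns to a called member) were chosen with earlier results of these data known. Intervals of counting error are not given because replicate spread is.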

Additional observations from a re-analysis of the deposited data

How the results depend on the processing

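Every log2 fold change of the 6 genes in PRMK versus PRM kept its direction under DESeq2, edgeR with RLE factors, no filter and each left-out library, except Pbx4 without PRM library 6 (-0.18, in a range of -0.18 to 0.59). In sgMeis2 versus sgScramble the sign turned for Tgif1 (range -0.11 to 0.19) without sgMeis2 library 1 (-0.11), sgMeis2 library 2 (-0.04) or sgScramble library 1 (-0.10), and without sgMeis2 library 3 for Pbx2 (0.0038, range -0.083 to 0.0038) and Pknox2 (0.16, range -0.46 to 0.16), and the cause was not tested. In PRMK versus PRM, edgeR called 0 genes, DESeq2 1218 (1 of the 6) and edgeR without 1 library 0 to 796 (0 to 1 of the 6). In sgMeis2 versus sgScramble, DESeq2 called 22, and edgeR without 1 library 0 to 46. Same-numbered sgMeis2 and sgScramble libraries did not deviate together (correlations of 0.013, -0.002 and 0.034). These values gave no sign of pairing, but 3 libraries a group cannot exclude it. With the replicate number as a block, edgeR called 0 genes.

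Region counts at the 7 genes for lung PRMK over lung PRM moved as follows. Within gene bodies, 2 H3K4me1 regions were gained in place of 6. With peaks at or above the median signal of their list, 0 H3K4me1 regions were gained, 4 H3K4me2 regions gained and 1 lost, and 2 H3K4me3 regions lost. Requiring a peak over at least 0.5 of a region gave 12 lost H3K4me1, 3 gained H3K4me2, 1 gained H3K4me3 and 2 lost KMT2C regions. For liver PRM over lung PRM, 8 ATAC regions were lost within gene bodies and 8 with a peak over at least 0.5 of the region (15 otherwise), and 1 H3K4me1 region was gained within gene bodies and 1 with peaks at or above the median signal (2 otherwise). Leaving out 1 library gave ranges in lung PRMK over lung PRM of 0 to 30 gained and 4 to 52 lost for ATAC, 6 to 10 gained for H3K4me1, 1 to 3 gained and 0 to 1 lost for H3K4me2, 0 to 1 gained and 0 to 2 lost for H3K4me3, and 42 to 95 gained and 1 to 3 lost for KMT2C. In liver PRM over lung PRM these were 0 to 1 gained and 15 to 68 lost for ATAC, 2 to 6 gained and 0 to 2 lost for H3K4me1, and 31 to 89 gained and 0 to 1 lost for KMT2C. Over the gene body alone, the ratio of covered length crossed 1 for Tgif1 H3K4me2 (0.98) and H3K4me3 (0.87) and Pbx4 H3K4me3 (1.05), where the groups did not overlap, and for Pbx4 H3K4me1 (0.56, 1.18 otherwise), Tgif2 H3K4me1 (0.83, 1.00 otherwise) and Tgif1 KMT2C (0.83, 1.04 otherwise), where they did. Depth limits Tgif2 (23 to 31 reads in PRMK libraries) and, in PRM library 6, Pknox2 (22 reads) and Pbx4 (25 reads).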
